A study of Homo sapiens with 1 sample.

Results

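The data were the signals of 6 mature microRNAs (miRNAs), the 5p and 3p arms of miR-146a, miR-146b and miR-155, on an Agilent array of DLD-1 cells. They were chosen by name, as every miRNA probe spot listed under hsa-miR-146a-5p, hsa-miR-146a-3p, hsa-miR-146b-5p, hsa-miR-146b-3p, hsa-miR-155-5p or hsa-miR-155-3p. These were 6 of 2549 miRNAs, 18 of 5893 probes and 120 of 50980 spots. DLD-1 is an established line of human colorectal carcinoma, grown here in medium with fetal bovine serum, and the cells had received an siRNA that served as negative control (si-NC, n = 1 array). The study set such cells against cells depleted of circLONP2, a circular RNA, to see which miRNAs changed, and the depleted array was not analysed here. So there was no comparison between groups and no p-value, and every error below is technical.

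A miRNA hairpin is cut into a duplex, and either strand can be loaded into Argonaute, where its seed, bases 2 to 8, pairs with target messenger RNAs. The transcription factor NF-kB switches on the genes of miR-146a and miR-155 in stimulated immune cells. The 5p arms of miR-146a and miR-146b repress IRAK1 and TRAF6, adaptors that carry Toll-like and interleukin-1 receptor signals to NF-kB, and so act as a brake. miR-155-5p, which represses SOCS1 and the phosphatase SHIP1, tends to raise inflammatory responses. The 5p strand of each of these hairpins is the usual guide. The cells were not labelled as stimulated and the array holds no readout of NF-kB, so the link to NF-kB is background and could not be checked here.

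The mature sequences are shown 5′ to 3′ with the seed in capitals, since the seeds decide which of the 6 share targets. They are RefSeq sequences on build GRCh38.p14, on which all 6 names matched (2248 of the 2549 on the array did).
hsa-miR-146a-5p: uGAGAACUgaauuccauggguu
hsa-miR-146b-5p: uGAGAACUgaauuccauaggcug
hsa-miR-155-5p: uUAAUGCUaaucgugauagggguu
hsa-miR-146a-3p: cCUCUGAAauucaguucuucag
hsa-miR-146b-3p: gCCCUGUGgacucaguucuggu
hsa-miR-155-3p: cUCCUACAuauuagcauuaaca
Only the 5p arms of miR-146a and miR-146b shared a seed among the 6, and the 3p arms of the same hairpins did not.

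The 2 miR-146 5p arms differed at 2 of the first 22 bases, both towards the 3′ end. Counted from the 5′ end, with the miR-146a base first, these were G18A and U21C, and miR-146b-5p carried 1 base more. The differing bases are in capitals below.
hsa-miR-146a-5p: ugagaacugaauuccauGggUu
hsa-miR-146b-5p: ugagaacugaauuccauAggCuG
Apart from this pair, no RefSeq mature miRNA differed from any of the 6 at 3 bases or fewer when aligned at the 5′ end without gaps. The probe sequences were not used here, so whether a probe for either of these arms also binds the other was not tested, and their signals are uncertain to that extent.

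The arms lay on the plus strand of GRCh38.p14 at chr5:160485372-160485393 (miR-146a-5p), chr5:160485408-160485429 (miR-146a-3p), chr10:102436520-102436542 (miR-146b-5p), chr10:102436557-102436578 (miR-146b-3p), chr21:25573983-25574006 (miR-155-5p) and chr21:25574022-25574043 (miR-155-3p). The array itself was designed on hg19, and no position was converted. MIR146A lies within the long non-coding RNA gene MIR3142HG and MIR155 within MIR155HG, while MIR146B lies between CUEDC2 and C10orf95-AS1 with no listed gene around it. The hairpins of miR-146a and miR-146b are shown with both arms in capitals, to show where the arms lie in each precursor.
MIR146A: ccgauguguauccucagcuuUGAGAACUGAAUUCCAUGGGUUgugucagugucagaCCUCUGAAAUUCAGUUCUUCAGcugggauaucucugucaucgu
MIR146B: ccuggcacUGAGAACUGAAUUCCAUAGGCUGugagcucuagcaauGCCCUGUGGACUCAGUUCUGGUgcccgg

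On this array of DLD-1 cells the scanner software called miR-146a-5p, miR-146b-5p, miR-155-5p and miR-146a-3p detected, and not miR-146b-3p or miR-155-3p. These were 4 of the 6, against 44.4% of all miRNAs on the array. By arm, 3 of 3 5p arms were called detected (49.1% of all miRNAs named 5p) and 1 of 3 3p arms (43.8% of all named 3p). A miRNA is called detected when a probe reaches 3 times its error, and the total gene signal sums the probes that do. With 6 members chosen by name, these counts describe them and test nothing.

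The array supplied the yardstick for a dim signal. The background-subtracted intensity of its 1000 negative control spots had a median of 0.0894, and 16.1 was the 99th percentile. Of these spots 1.40% carried the flag for a signal well above background. The dimmest miRNA spot with that flag stood at 13.1. No spot was saturated, and 34.3% of all miRNA spots were well above background. The 8 colon epithelium markers, among them miR-192-5p, miR-194-5p and the miR-200 family, were all called detected. Of 5 stroma and vessel markers 1 was. This was miR-126-3p, with a total gene signal of 123 ± 8.75 and 20 of 20 spots well above background. Beside these, 44.4% of all miRNAs were called detected.

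**Figure D1:**
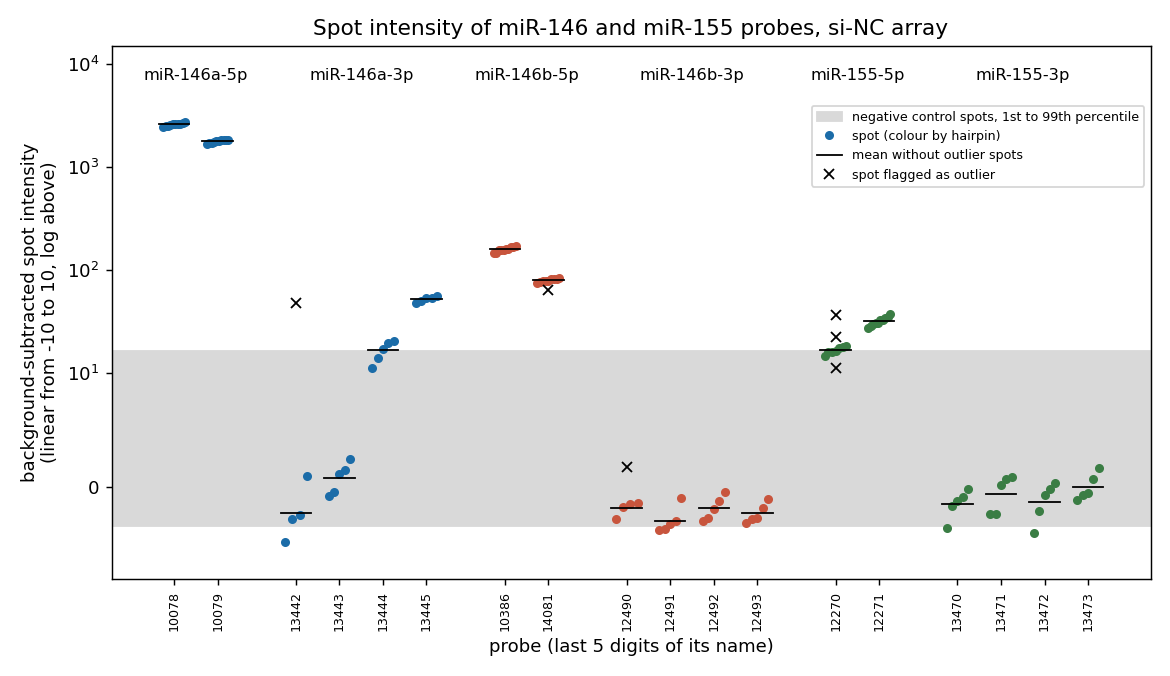
Background-subtracted intensity (vertical axis, linear around 0 and logarithmic above) of each of the 120 spots, grouped by probe along the horizontal axis. Dots are spots, crosses are spots flagged as outliers, lines are means without them, and the grey band spans the 1st to the 99th percentile of negative control spots. The miR-146a-5p spots run from 1666 to 2726, 15 of the 20 miR-155-5p spots lie above the upper edge of the band and the other 5 inside it, and the miR-146b-3p and miR-155-3p spots lie mostly in its lower part.

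miR-146a-5p was the clearest of the 6. Its total gene signal was 797 ± 57.4 (error of the scanner software), and 20 of 20 spots were well above background. On the probe A_25_P00010078 the 10 spots ran from 2445 to 2726 with a median of 2607. On A_25_P00010079 they ran from 1666 to 1847 with a median of 1774. Spots of the same probe stayed close together and the 2 probes did not overlap. The lowest of all these spots was far above the 99th percentile of negative controls.

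miR-146b-5p, which carries the same seed, had a total gene signal of 43.4 ± 3.31, again with 20 of 20 spots well above background. On A_25_P00010386 the 10 spots ran from 145.9 to 169.6 with a median of 157.9. On A_25_P00014081 the 9 spots kept ran from 74.2 to 82.8 with a median of 77.9, and an outlier spot stood at 63.6. All 20 spots were above the 99th percentile of negative controls. Among the 2248 array names matched to RefSeq, the only other miRNA with this seed was hsa-miR-7153-5p. It was called detected at 7.28 ± 0.852 with 20 of 20 spots well above background. That signal was close to background, with probe medians of 21.5 and 18.1 beside 16.1 for the 99th percentile of negative controls. Array names without a RefSeq match were not searched for the seed.

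miR-155-5p was close to background. Its total gene signal was 8.85 ± 0.943, and 19 of 20 spots were well above background. On A_25_P00012271 the 10 spots ran from 27.3 to 37.4 with a median of 31.7, and 0.200% of negative control spots reached that median. On A_25_P00012270 the 7 spots kept ran from 14.5 to 18.1 with a median of 16.1, which 1.1% of negative control spots reached. The other 3 spots of that probe were flagged as outliers, at 11.2, 22.2 and 36.3, against 4.51% of all miRNA spots. With them the mean of the probe was 18.6 and the coefficient of variation (CV) over its spots was 36.8%. Without them the mean was 16.6 and the CV was 7.54%. Of the 20 spots, 15 exceeded the 99th percentile of negative controls. No other RefSeq mature miRNA carried the miR-155-5p seed.

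The 3p arms differed from each other in detection. miR-146a-3p was called detected at 6.25 ± 0.602, but 10 of its 20 spots were well above background and only 2 of its 4 probes carried the call. The 5 spots of A_25_P00013445 were 47.7, 49.9, 52.7, 52.9 and 55.7. Those of A_25_P00013444 were 11.2, 14.0, 17.2, 19.7 and 20.5. Both probes passed the limit of 3 errors, at 8.92 and 5.31 errors. On A_25_P00013443 the spots were -0.75, -0.44, 1.19, 1.5 and 2.47, at 0.304 errors. On A_25_P00013442 they were -4.80, -2.79, -2.44 and 0.990, with an outlier spot at 47.8 that was flagged as well above background and left out by the software. Of negative control spots, 25.9% reached the median of the former and 96.7% that of the latter, so neither stood apart from them.

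miR-146b-3p was not called detected. None of its 20 spots was well above background, and 19 of them were under 0. The spots ran from -3.74 to 1.76, and the highest was an outlier spot. The probe medians were so low that between 86.0% and 98.6% of negative control spots lay at or above them. miR-155-3p was not called detected either, with 0 of 20 spots well above background. Its spots ran from -4.04 to 1.63, 14 of them under 0, and between 47.2% and 81.5% of negative control spots lay at or above its probe medians. At this signal over background neither arm was detectable, which does not show that it is absent.

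The balance of the arms was read from detection within each hairpin, because signals of different probes also depend on how well each probe binds. miR-146a had both arms called detected, with 797 for the 5p arm beside 6.25 for the 3p arm. The former sums 2 probes of 10 spots and the latter the 2 of 4 probes of 5 spots that carried the call. So their ratio does not measure the ratio of the arms. On the brightest probe of each arm the mean spot signal was 2588 and 51.8. miR-146b had 43.4 beside a 3p arm not well above background, and miR-155 had 8.85 beside a 3p arm not well above background. Over the 810 miRNA names with both arms on the array, 232 (28.6%) had both arms called detected, 163 (20.1%) the 5p arm only, 122 (15.1%) the 3p arm only and 293 (36.2%) neither. So the 3 hairpins fell into the 2 patterns in which the 5p arm gives a signal.

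**Figure D2:**
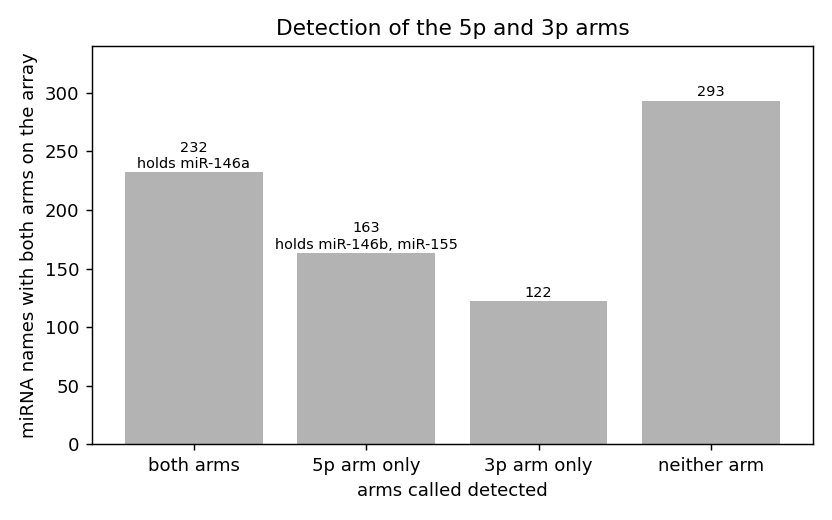
Number of miRNA names with both arms on the array (vertical axis) by the arms called detected (horizontal axis). The bar for both arms (232 names) holds miR-146a, and the bar for the 5p arm only (163 names) holds miR-146b and miR-155.

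Of 3 stricter rules, 2 took away miR-146a-3p, and none took away another of the 4. When at least 50% of the spots of 1 probe had to carry the flag, all 4 passed, beside 37.9% of all miRNAs. When every probe of a miRNA needed the flag on at least 50% of its spots, 3 of the 6 passed, beside 29.4% of all miRNAs. When the median spot had to exceed the 99th percentile of negative controls, the same 3 passed, beside 31.0% of all. The 3 were the 5p arms of miR-146a, miR-146b and miR-155. Under these 2 rules no 3p arm of the 3 hairpins passed.

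The 5p and 3p arms were also read by different designs. Each 5p arm had 2 probes of 10 spots and each 3p arm 4 probes of 5 spots, so all 6 had 20 spots. Over the array 2056 miRNAs had the first design and 44.8% of them were called detected, and 314 had the second and 45.2% were. Of the 142 detected miRNAs with 4 probes, 74 (52.1%) had all 4 probes past 3 errors and 27 (19.0%) had 2, as miR-146a-3p did. The last probe by name was the brightest for miR-146a-3p, as it was for 88 of the 142 (62.0%). What the names encode is not given in the sources used here.

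Probes listed under the same arm did not give the same signal. The brighter probe exceeded the dimmer by 0.55 ± 0.02 on the log2 scale for miR-146a-5p (SE from replicate spots) and by 1.00 ± 0.03 for miR-146b-5p, which as ratios of signal were 1.46 and 2.0. The spots of the 2 probes did not overlap for either arm. For miR-155-5p the difference was 0.94 ± 0.06 without outlier spots, but the median of the dimmer probe was just under the 99th percentile of negative controls, so the size of the difference is uncertain. With outlier spots kept it was 0.84, and the spot at 36.3 on the dimmer probe lay within the range of the brighter. Over the 651 detected miRNAs with 2 such probes the median was 0.31, with quartiles of 0.12 and 0.70, and 92 differed by 1 or more. The difference of miR-146a-5p lay below the upper quartile and that of miR-146b-5p above it. For miR-146a-3p the 2 probes that carried the call differed by 1.68 ± 0.17, and the dimmer of them was also close to background. Background correction by normexp, which adds an offset to each signal, lowered the difference of miR-155-5p to 0.26 and that of miR-146b-5p to 0.67.

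**Figure D3:**
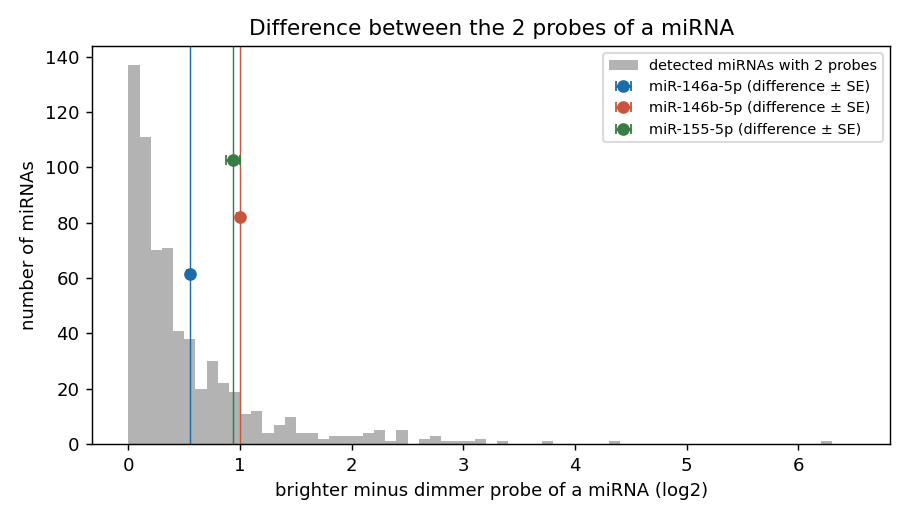
Histogram of the log2 difference between the brighter and the dimmer probe (horizontal axis) over 651 detected miRNAs with 2 probes (vertical axis, number of miRNAs). Coloured points with error bars give the difference ± SE of the 5p arms, 0.55 for miR-146a-5p, 1.00 for miR-146b-5p and 0.94 for miR-155-5p, whose dimmer probe is close to background, and their height has no meaning.

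Replicate spots set the error within the array. Without outlier spots, the CV over spots was 3.27% and 3.24% for the probes of miR-146a-5p. It was 4.99% and 4.04% for those of miR-146b-5p, and 9.67% and 7.54% for those of miR-155-5p. With outlier spots kept, the 4.04% became 7.42% and the 7.54% became 36.8%. For miR-146a-3p the CV was 5.91% on the brighter of the 2 probes that carried the call and 23.6% on the dimmer. Over all 1943 probes with at least 50% of spots well above background the median CV was 8.74%. Beside probes of like signal, the miR-146a-5p values were under the median of 3.94% for means from 1000 to 5000. The dim miR-146a-3p probe lay above the upper quartile of 19.0% for means from 10 to 30. For miR-146a-5p the software error was wider than the spread of spots, at 10.0% of the signal for each probe and 7.20% for the sum. For the dim miR-146a-3p probe it was 18.8%, beside the CV of 23.6%. The software error is that of the total probe signal and the CV is the spread of single spots, so these are not like measures.

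**Figure D4:**
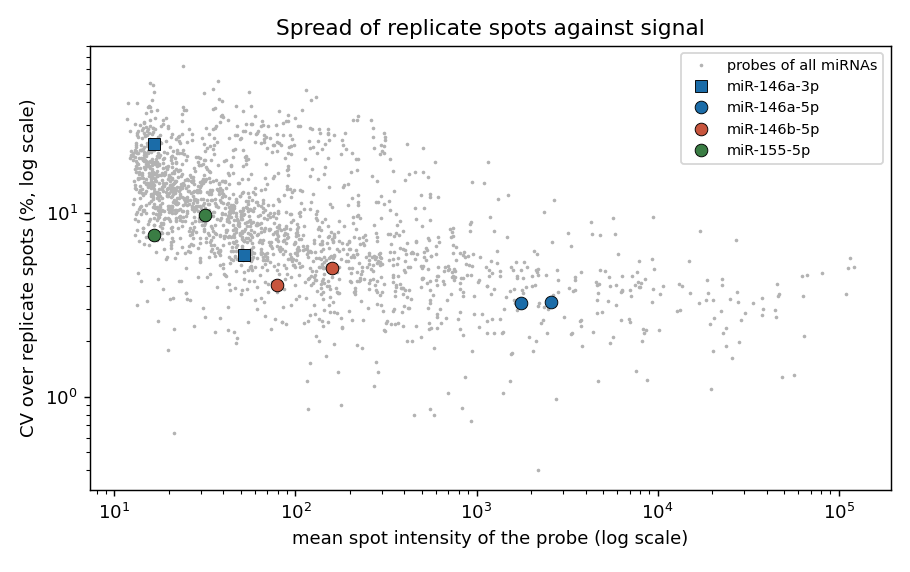
CV over replicate spots in percent (vertical axis, log scale) against mean background-subtracted intensity (horizontal axis, log scale) for 1943 probes (grey) and the 8 probes of miR-146 and miR-155 that passed the same filter (coloured, circles for 5p and squares for 3p). Outlier spots are left out. The CV falls with signal, and among the coloured probes it runs from 3.24% for miR-146a-5p to 23.6% for miR-146a-3p.

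Set against the 75th percentile of the spots of detected miRNAs, a signal of 143, the probes of miR-146a-5p lay at 4.18 ± 0.05 and 3.63 ± 0.05 on the log2 scale (SD over spots). Those of miR-146b-5p lay at 0.15 ± 0.07 and -0.85 ± 0.06, on either side of that reference. The probes of miR-155-5p lay at -2.17 ± 0.14 and -3.11 ± 0.11. The deposited table of quantile normalized log2 values held 9.54 for miR-146a-5p, 5.55 for miR-146b-5p, 3.21 for miR-155-5p and 2.62 for miR-146a-3p. It held its lowest value, 2.32, for miR-146b-3p and miR-155-3p, as it did for all 1416 miRNAs at that floor. For the 4 detected arms the table differed from the log2 total gene signal by -0.10, 0.11, 0.06 and -0.02 in the same order.

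Other miRNAs tied to NF-kB, Toll-like receptor or TNF signalling were read in the same way. Of 23 such arms on the array 14 were called detected (60.9%, beside 44.4% of all miRNAs). The brightest signals were those of miR-21-5p, which represses PDCD4, at 23842 ± 1688, of let-7i-5p, a regulator of TLR4, at 2418 ± 171, and of miR-301a-3p, which targets the NF-kB repressor NKRF, at 1027 ± 73.6. Signals between 100 and 300 were seen for miR-21-3p at 223 ± 15.8, miR-125b-5p at 174 ± 12.5, miR-181b-5p at 144 ± 10.6 and miR-212-3p at 138 ± 9.78. Lower signals were seen for miR-223-3p at 25.4 ± 1.97, miR-9-5p at 22.1 ± 1.71, miR-132-3p at 20.2 ± 1.59, miR-132-5p at 18.0 ± 1.45, miR-301a-5p at 17.4 ± 1.44 and miR-9-3p at 9.0 ± 0.934. The dimmest was let-7i-3p at 3.18 ± 0.415, with 6 of 20 spots well above background, while the other 13 had 20 of 20. Not called detected were both arms of miR-187 and miR-199a, miR-147a, miR-147b, miR-346, miR-212-5p and miR-223-5p, with at most 1 of 20 spots well above background.

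Because miR-146a and miR-155 are abundant in leukocytes, markers of blood cells were read beside them. Of 7 such markers 4 were called detected (57.1%, beside 44.4% of all miRNAs). These were the arms of miR-142, with total gene signals of 695 ± 50.05 for 3p and 41.8 ± 3.04 for 5p, the erythroid miR-451a at 21.5 ± 1.67, and the myeloid miR-223-3p, whose value is given above. The others, miR-150-5p, miR-144-3p and miR-486-5p, were not, with 0, 0 and 1 of 20 spots well above background. With 1 array these values cannot move with the members, and their part in the miR-146 and miR-155 signals was not tested. The miR-3142 hairpin lies in the same host gene as miR-146a. Its miRNA, looked at after the other values had been seen, was not called detected, with 0 of 20 spots well above background.

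The label of the 6 as NF-kB-linked can be set against sequence only, and here only for the host genes of miR-146a and miR-155. No window was available for MIR146B, so miR-146b was not searched. The kappaB consensus, a decamer that NF-kB binds, was searched on both strands from 250 bases before to 50 bases after gene starts in RefSeq (GRCh38.p14). It was present in 3956 of 35116 such windows (11.3%). The window of MIR3142HG, the host of miR-146a, held 1 match, 120 bases before the start, shown in capitals within chr5:160468121-160468150 on the plus strand.
MIR3142HG: ggatctagaaGGGACTTTCCagagagggtt
The window of MIR155HG held none, which says only that these letters are not in that window. A match is a description of the sequence and not of binding in these cells.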

How the data were processed

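MiRNA levels of 1 array of DLD-1 cells (si-NC) were analysed. Per the labels, RNA was tagged with Cyanine 3-pCp, whereas the study's methods name a cDNA kit, and the values do not decide between them. Per the file headers, Feature Extraction 11.0.1.1 was run on a design from hg19, and the deposited intensity is background-subtracted but not normalized between arrays. The authors also deposited log2 values, quantile normalized in GeneSpring, whose log2 scale and floor were found from the values. Of the columns in that table, 0 belonged to other samples.

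Detection was the flag of the software. Outlier spots were left out of probe means, SD and CV, as the software does. Total probe signal equalled the mean of the kept spots times the number of all spots of the probe, outliers included, times 0.0183 for all 743 probes with a mean over 100. A CV or a probe difference needed at least 50% of spots well above background. Python 3.11.15 with numpy 2.4.6, pandas 2.3.3 and matplotlib 3.10.9, and R 4.3.3 with limma 3.58.1 (normexp, offset 50, on the median spot signal), were used, and the spot functions were tested on simulated data. Alternatives were 4 other detection rules, another reference percentile, normexp, dim probes not filtered, outlier spots not removed, a sum over every probe, and log2 of the scanner signal.

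The 6 miRNAs and all lists were chosen with earlier results of these data known. The naming rule took the 6 members, miRNAs sharing a seed or within 3 bases, and detected entries of the pathway and blood lists, and their undetected entries are named to complete the lists. Of the pathway names 2, miR-147b-5p and miR-147b-3p, did not match a name on the array. The colon, stroma and vessel markers named above were outside that rule. The single array limits the precision.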

Additional observations from a re-analysis of the deposited data

How the results depend on the processing

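Over 26 results 64 alternative values were computed, of which 40 stayed within their limits. Counts of detected members were 3 or 4 under every rule, and the counts of the pathway, colon, blood and stroma lists stayed within 1.5 times. Hairpins with both arms called detected went from 1 to 0 where every probe had to be well above background and to 0 where the median spot had to exceed the 99th percentile of negative controls. Both rules ask more of miR-146a-3p, in which 2 of 4 probes were at background. The median level of the 5p probes, -0.35, became 2.09 when the percentile was taken over every miRNA spot, a reference of 26.3 in place of 143, and -0.22 after normexp. Under that percentile the level of A_25_P00014081 (miR-146b-5p) went from -0.85 to 1.59 and that of A_25_P00012271 (miR-155-5p) from -2.17 to 0.27, so the side of the reference on which they fall depends on it. The median difference between the probes of the 5p arms, 0.94, became 0.84 if outlier spots entered and 0.53 after normexp, which adds its offset to both probes. The median CV of 5.45% over 8 probes ran from 3.21% to 6.67% under the alternatives, over 9 probes where dim ones were not filtered. The sum over every probe stayed within the software error, as did the log2 scanner signal except for miR-146b-5p, at 5.44 beside a deposited 5.55 (cause not tested). No paired analysis was possible because there is 1 sample.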
